A study of Homo sapiens with 16 samples.

Results

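MOLT-16, a human cell line of T-ALL (acute lymphoblastic leukemia of the T lineage, in which immature T cells grow as a cancer), was described against 15 other T-ALL cell lines, and was 1 of the 16 arrays measured. Its array was found by the cell line label, and the line was picked for description with earlier results of these data known. The other lines were ALL-SIL, CCRF-CEM, DU528, HSB-2, JURKAT, KOPT-K1, LOUCY, MOLT-4, P12-ICHIKAWA, PEER, PF-382, SKW-3, SUP-T11, SUP-T13 and TALL-1. Each line was grown untreated for 24 hours from 3000000 cells in 10 ml of RPMI-1640 medium with 10% fetal bovine serum and antibiotics. Its total RNA was hybridised to an Affymetrix U133 Plus 2.0 array, whose probe sets report a transcript's level as an intensity. MOLT-16 was measured once, so no test was run and no p-value is given. An exact permutation of 1 line among 16 could not give a p below 0.0625, and the spread used throughout is the range of the other 15 lines. As whole cultures were measured, fewer cells carrying a transcript and less of it per cell cannot be told apart.

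The T-cell receptor is a pair of antigen-binding chains held at the surface by the CD3 and zeta chains, whose phosphorylation by the kinase LCK recruits ZAP70 and the adaptor LAT. ATF4 is a transcription factor that is translated when cells lack amino acids or fold proteins poorly, and that raises genes of amino acid synthesis, amino acid import and tRNA charging. Asparagine synthetase, an ATF4 target, matters in lymphoblastic leukemia because the drug asparaginase removes asparagine from the blood.

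CHAC1 and ASNS, taken from earlier results of these data as genes that mark the line, were highest in MOLT-16. CHAC1, an enzyme that degrades glutathione, had an intensity of 1053 in MOLT-16, between 1.99 and 313 (median 45.3) in the other lines. ASNS, asparagine synthetase, had 5976 in MOLT-16, between 24.4 and 3516 (median 520.1) in the other lines. The next line in both cases was SUP-T11, and on the scale used here, log2(intensity + 16), MOLT-16 lay 1.70 above it for CHAC1 and 0.76 above it for ASNS. The sole other ASNS probe set was at the bottom of the scale in MOLT-16 and in the other lines (1.0, against 1.0 to 7.95). The bases before the RefSeq start sites of both genes (build GRCh38.p14) are shown because each holds 1 copy of TGATGNAAN, the C/EBP-ATF response element that ATF4 is known to bind, here in capitals. CHAC1 is at chr15:40953221-40953470 on the plus strand, with the element on the opposite strand, so that it reads as its reverse complement. ASNS is at chr7:97872409-97872658 on the minus strand, with the element in the gene's own direction.
CHAC1: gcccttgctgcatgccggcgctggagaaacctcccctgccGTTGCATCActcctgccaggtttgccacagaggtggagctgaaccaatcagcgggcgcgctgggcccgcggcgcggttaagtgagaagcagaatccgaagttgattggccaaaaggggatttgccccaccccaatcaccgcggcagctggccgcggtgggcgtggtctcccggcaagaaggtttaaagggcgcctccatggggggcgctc
ASNS: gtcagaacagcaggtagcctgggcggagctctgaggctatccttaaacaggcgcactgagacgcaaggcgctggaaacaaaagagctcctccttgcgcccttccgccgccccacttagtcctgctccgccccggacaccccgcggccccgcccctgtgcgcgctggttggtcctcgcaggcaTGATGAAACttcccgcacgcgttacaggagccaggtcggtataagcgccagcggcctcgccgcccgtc

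Genes were counted as set apart where MOLT-16 lay at least 2 log2 units, or 4-fold on this scale, above or below every other line. Of 19700 genes, 15 were set apart high (0.0761%) and 29 were set apart low (0.147%). The widest gaps among the high genes were those of SLC2A5, RGN, SOSTDC1, ASS1 and LINC01694, and among the low genes those of HMGB3, VOPP1, TUG1, HMGB3P1 and SLC40A1. The split depended on the scaling: it was 24 high and 25 low after quantile normalization, and 21 high and 23 low after centring the arrays on their medians. With a pseudocount of 1 in place of 16 it was 24 high and 54 low, and with 64 it was 8 and 8. Among the 10961 genes reaching 4 times the table median of 42.4 in at least 1 line, here called bright, 0.128% were set apart high and 0.265% low, 0.666% were above and 0.976% below all other lines by at least 1, and 11.7% were highest and 11.8% lowest in MOLT-16 by any gap. Among the 4026 genes with a median of at least 1000 in the other lines, these shares were 0.0%, 0.298%, 0.0745%, 1.07%, 15% and 12.7%. This choice leaves out genes that were low in most other lines, so few of its genes could lie far above all of them. The MOLT-16 array had the lowest median intensity of the 16 (37.6, against 38.1 to 45.0) and the lowest upper quartile (248, against 262 to 308). The 3' to 5' ratio of its control probe sets lay within the range of the other lines, at 1.90 for ACTB (1.44 to 2.03 in the others) and 0.943 for GAPDH (0.904 to 1.05).

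Other lines had set-apart genes as well. Their counts ran from 0 to 81 high genes (median 10.0, highest in LOUCY) and from 1 to 53 low genes (median 7.0, highest in SUP-T11). MOLT-16 was 6th of the 16 lines by high genes and 5th by low genes.

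**Figure D1:**
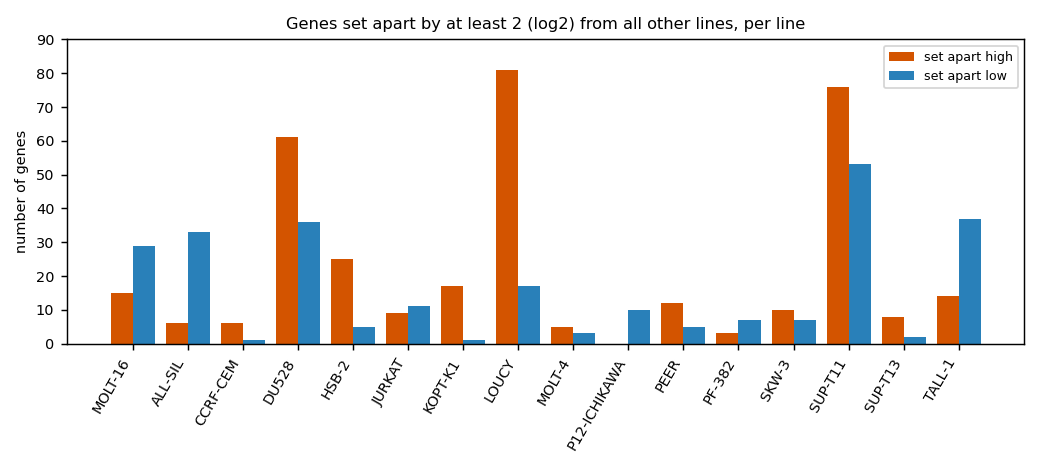
Number of genes (vertical axis) that lay at least 2 log2 units above (orange) or below (blue) all 15 other lines, for each of the 16 lines, with MOLT-16 at the left. MOLT-16 had 15 high and 29 low genes, and LOUCY with 81 high and SUP-T11 with 53 low genes had the most.

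Among the high genes, SLC2A5 stood farthest out. It encodes a fructose transporter of the cell surface and had an intensity of 1545 in MOLT-16, between 3.31 and 23.9 (median 13.97) in the other lines, a gap of 5.29. A second probe set of SLC2A5 gave 469 in MOLT-16, between 25.9 and 65.3 (median 40.4) in the other lines. The remaining SLC2A5 probe sets were dim in all lines, and in 1 of them MOLT-16, at 57.6, was not the highest. RGN, which encodes the calcium-binding protein regucalcin, had 939 in MOLT-16, between 4.02 and 29.4 (median 15.2) in the other lines. For both genes no other line came near the level of MOLT-16.

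SOSTDC1 and ASS1 were set apart although some other lines had them above their dimmest levels. SOSTDC1, a secreted antagonist of bone morphogenetic proteins, had 5247 in MOLT-16, between 1.0 and 308 (median 7.95) in the other lines, with CCRF-CEM the next. ASS1, which joins citrulline and aspartate in the step that limits arginine synthesis, had 6242 in MOLT-16, between 15.4 and 744 (median 64.7) in the other lines, with a gap of 3.04 to P12-ICHIKAWA. The following enzyme of that pathway, ASL, was not high: it had 96.3 in MOLT-16, between 10.9 and 768 (median 104) in the other lines.

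Several high genes encode immune proteins. IFIT1 and IFIT2, RNA-binding proteins that interferon induces, lie close together on chromosome 10. IFIT1 had 1012 in MOLT-16, between 13.9 and 200.2 (median 65.05) in the other lines, and IFIT2 had 1316, between 39.1 and 279 (median 132) in the others. A second probe set of IFIT2 lay 1.99 above the next line. TNFRSF4, the costimulatory receptor OX40 of activated T cells, had 987 in MOLT-16, between 14.1 and 218 (median 38.7) in the other lines. A dim second TNFRSF4 probe set (23.4 in MOLT-16, 22.5 to 51.5 in the others) did not show this.

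The other high genes have mixed roles. ZNF185, a LIM-domain protein, had 1414 in MOLT-16, between 26.6 and 194 (median 62.5) in the other lines. PROCR, the endothelial protein C receptor, had 491, between 7.07 and 97.5 (median 12.6) in the others. The long noncoding RNA LINC01694 had 732, between 4.78 and 76.7 (median 13.4) in the others. The secreted protease ADAMTS18 had 230.2, between 11.4 and 40.02 (median 24.3) in the others, and its dim second probe set gave 1.16 in MOLT-16. TSKS, CCDC8, FAM90A1 and LOC100506405 had gaps from 2.01 to 2.07, and the highest of the 4 in MOLT-16 was LOC100506405 at 1076, between 5.42 and 254 (median 12.2) in the others. Only 2 of the 15 high genes, SLC2A5 and IFIT2, had a second probe set that reached 4 times the table median. Both reached it in MOLT-16 alone (469 and 278, against at most 65.3 and 58.1 in the others). A probe set that passes in this way must be highest in MOLT-16, so passing is no separate check of the high genes.

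**Figure D2:**
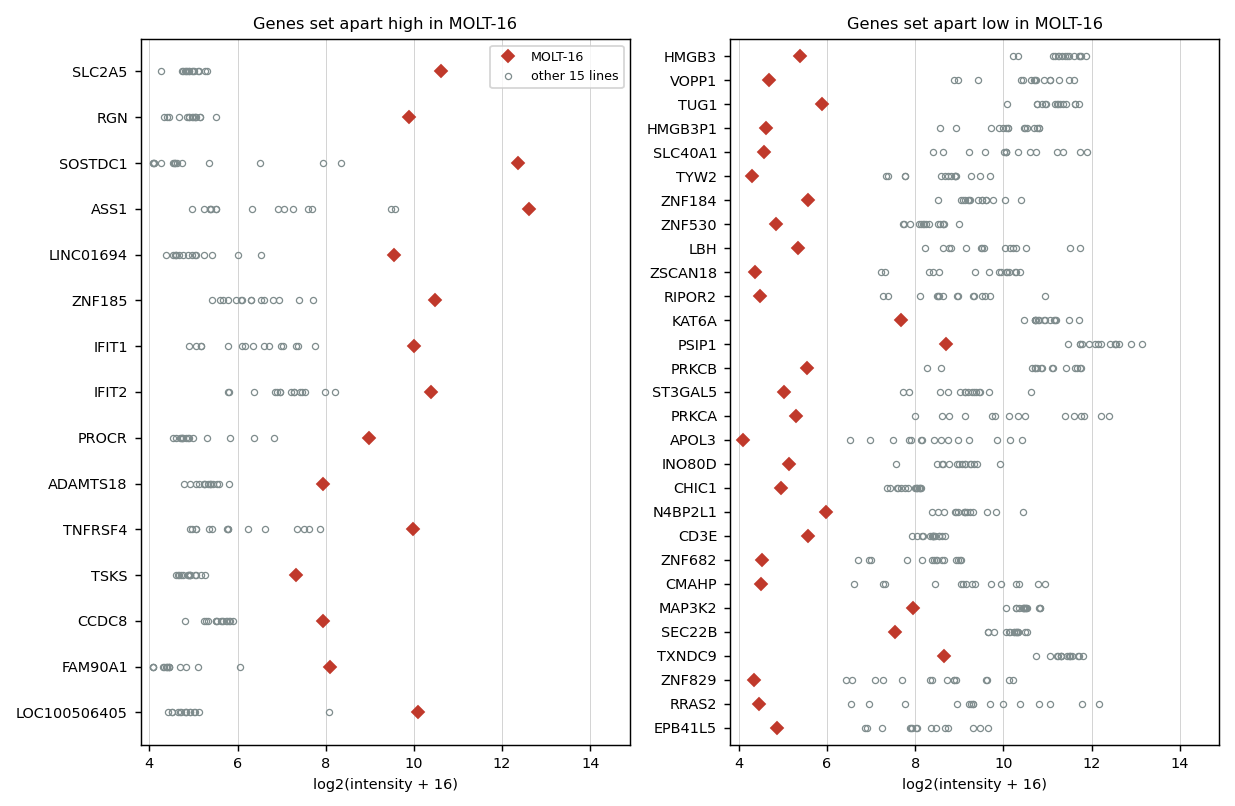
Level as log2(intensity + 16) (horizontal axis) of the 15 genes set apart high (left) and the 29 set apart low (right), in MOLT-16 (red diamonds) and each of the other 15 lines (grey circles), ordered by the gap to the nearest line. SLC2A5 at the top left and HMGB3 at the top right have the widest gaps, 5.29 and -4.82.

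Of the genes set apart low, HMGB3 stood farthest out. It encodes a high-mobility group protein that binds DNA and had 26.00 in MOLT-16, between 1170.4 and 3712 (median 2669) in the other lines, a gap of -4.82 to SUP-T11. Its second probe set gave 14.6 in MOLT-16, between 459.5 and 1819.9 (median 1048) in the other lines. HMGB3P1, a pseudogene of HMGB3, had 8.56 in MOLT-16, between 359.8 and 1782 (median 1092) in the others, and since a pseudogene resembles its parent gene, its probe set may read HMGB3 and is reported as uncertain. VOPP1 had 9.54 in MOLT-16, between 457 and 3107 (median 1664) in the other lines, on its sole probe set. The genes HMGB3 and VOPP1 were near the bottom of the scale in MOLT-16 and well above the table median in every other line.

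SLC40A1 encodes ferroportin, the iron exporter of the cell. It had 7.71 in MOLT-16, between 323 and 3821 (median 1059) in the other lines, and its dimmer second probe set was also lowest in MOLT-16 (23.1, against 34.1 to 232). TYW2, an enzyme of tRNA modification, had 3.68 in MOLT-16, between 146 and 816 (median 437) in the others. ST3GAL5, which makes the ganglioside GM3, had 16.8, between 197 and 1574 (median 570.4) in the others. APOL3, an apolipoprotein L, had 1.0 in MOLT-16, between 76.3 and 1362 (median 328) in the others. These genes had levels that ranged widely among the other lines, yet in every other line they were above the level of MOLT-16.

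Some low genes act in chromatin or transcription. PSIP1, the chromatin tether LEDGF, had 397 in MOLT-16, between 2799.6 and 8984 (median 4704) in the others. A second PSIP1 probe set gave 175 in MOLT-16, between 1475 and 5838 (median 2816) in the others, but a further one, at 562, lay within the range of the others (277 to 1296). KAT6A, a histone acetyltransferase, had 188 in MOLT-16, between 1392 and 3373 (median 1916) in the others, whereas its other bright probe sets were lowest by only 0.20 and 0.21. INO80D, a subunit of the INO80 remodeller, had 19.4, between 174 and 954 (median 521) in the others, with probe sets that disagreed. LBH, a transcription cofactor, had 24.8, between 281 and 3396 (median 744) in the others.

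Zinc finger genes were frequent among the low genes. ZNF184 had 31.1 in MOLT-16, between 350.8 and 1331 (median 668) in the others, ZNF530 had 12.9, between 196 and 493 (median 287) in the others, and ZSCAN18 had 4.65, between 133 and 1317 (median 946) in the others. With ZNF682 and ZNF829, 5 of the 375 bright genes whose symbols begin with ZNF or ZSCAN were set apart low (1.33%). Of all bright genes, 0.265% were set apart low. Of the 375 genes 1, the LIM-domain gene ZNF185, was set apart high. This family was picked out after its values were seen. Over the 375 genes, the median of MOLT-16 minus the median of the other lines was -0.25, and the same median taken for each other line ran from -0.22 to 0.30.

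Other low genes encode kinases, a GTPase and further proteins. PRKCB, the beta form of protein kinase C, had 31.1 in MOLT-16, between 294 and 3449 (median 1875) in the others, and all 3 of its other bright probe sets were lowest in MOLT-16 as well. PRKCA, the alpha form, had 23.5, between 239.9 and 5375 (median 1265) in the others, but its second bright probe set was not lowest in MOLT-16 (29.00, against 27.6 to 647). RIPOR2 had 6.16 in MOLT-16, between 138 and 1957 (median 481) in the others, with its second probe set lowest too. RIPOR2 and CMAHP, which adjoin on chromosome 6 among the measured genes, were both set apart low. RRAS2, a small GTPase, had 6.11, between 76.8 and 4583 (median 624) in the others, and its other 2 probe sets were lowest by 1.78 and 1.69. Of the others, CHIC1 at 15.1 and N4BP2L1 at 46.6, were lowest by -2.42 and -2.41.

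The second probe sets mattered for the low genes. Of the 29 genes, 17 had a further probe set reaching 4 times the table median. In 9 of them every such probe set was lowest in MOLT-16 by any gap, in 5 some were, and in 3 (TUG1, PRKCA and MAP3K2) none was. Only 8 of the 17 genes had such a probe set lowest by at least 1. Those of KAT6A, SLC40A1 (0.36), ZSCAN18 (0.41) and ZNF682 (0.74) were lowest by less. TUG1, a long noncoding RNA, shows the disagreement most clearly: the probe set that represented it gave 43.5 in MOLT-16, between 1063 and 3367 (median 2349) in the others, while another gave 1872 in MOLT-16, between 807 and 2619 (median 1933) in the others. For TUG1, PRKCA and MAP3K2 the place below every other line thus rests on 1 probe set, although the second PRKCA probe set was also well below the others' median of 125.

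The genes nearest the threshold differed little from each other. LOC100506405 (2.01) and FAM90A1 (2.04) lay just inside on the high side, and FAM81A (1.98) and NPW (1.98) just outside. On the low side EPB41L5 (-2.01) and RRAS2 (-2.07) lay just inside, and JAK1 (-1.99) and PHYKPL (-1.90) just outside. JAK1, the kinase of many cytokine receptors, had 186 in MOLT-16, between 785 and 4079 (median 2181) in the others. Both other bright JAK1 probe sets were also lowest in MOLT-16, by -1.90 and -1.40.

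MOLT-16 was taken, from earlier results of these data, as a line poor in the receptor complex, and its values were low for some chains only. Of 10 listed receptor and CD3 genes 7 were measured, 3 were lowest in MOLT-16, and 1 of these, CD3E, was below all other lines by at least 1. Of all genes, 9.7% were lowest in MOLT-16 and 0.563% were below all other lines by at least 1. All 7 measured genes were bright, and of bright genes these shares were 11.8% and 0.976%. CD3E, the epsilon chain of CD3, had 31.1 in MOLT-16, between 227 and 391 (median 323) in the others, on its sole probe set. CD247, the zeta chain, had 589 in MOLT-16, between 1154 and 4943 (median 2165) in the others, and CD3D, the delta chain, had 7095, between 9892 and 14179 (median 12202) in the others. Thus CD3D, though lowest in MOLT-16, was still a bright probe set there.

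The remaining chains overlapped the other lines. CD3G, the gamma chain, had 1472 in MOLT-16, between 667 and 8568 (median 5332) in the others, with DU528 alone lower. TRBC1, the constant part of the beta chain, had 10930.3 in MOLT-16, between 2959 and 17607 (median 14979) in the others, and 3 lines were lower. Its related genes share sequence with it, so TRBC1 is reported as uncertain. TRAT1, which stabilises the complex, had 987, between 264 and 3698 (median 1718) in the others. PTCRA, the alpha chain of the early receptor, was near the table median in MOLT-16 (49.9) and in many other lines (median 49.3). Over the 7 genes the median of MOLT-16 minus the median of the other lines was -0.79, below the same value in each other line (-0.37 to 0.33) and beside 0.0038 over all genes. Without _x_at and _s_at probe sets, which target several transcripts and leave fewer chains, it was -1.85.

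Proximal signalling genes were low as a group. All 22 measured genes lay below the median of the other lines. SYK (10.6, median 11.3 in the others) and TXK (19.0, median 19.3 in the others) did so only barely. The median difference was 0.0038 over all genes and -0.0147 over bright genes. Genes in general thus lay about evenly above and below, which is the background for such counts here and in the lists that follow. Of the 22, 6 were lowest in MOLT-16, and 3 (LCK, ZAP70 and UBASH3A) were below all other lines by at least 1. Of all genes 9.7% were lowest and 0.563% below by at least 1. All 22 genes were bright, and of bright genes these shares were 11.8% and 0.976%. LCK had 942 in MOLT-16, between 2679 and 14199 (median 7373) in the others, and its second probe set was lowest by -1.58. ZAP70 had 519, between 1144 and 3677 (median 1722) in the others, and a second ZAP70 probe set was lowest by -0.87. UBASH3A, a phosphatase-like inhibitor of receptor signalling, had 13.4, between 65.2 and 1512 (median 513) in the others. RASGRP1, which activates RAS downstream of the receptor, was lowest at 112, between 155 and 10418 (median 2284) in the others, with a narrow gap of -0.41. The list's median difference was -1.18, against -0.28 to 0.55 in the other lines.

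**Figure D3:**
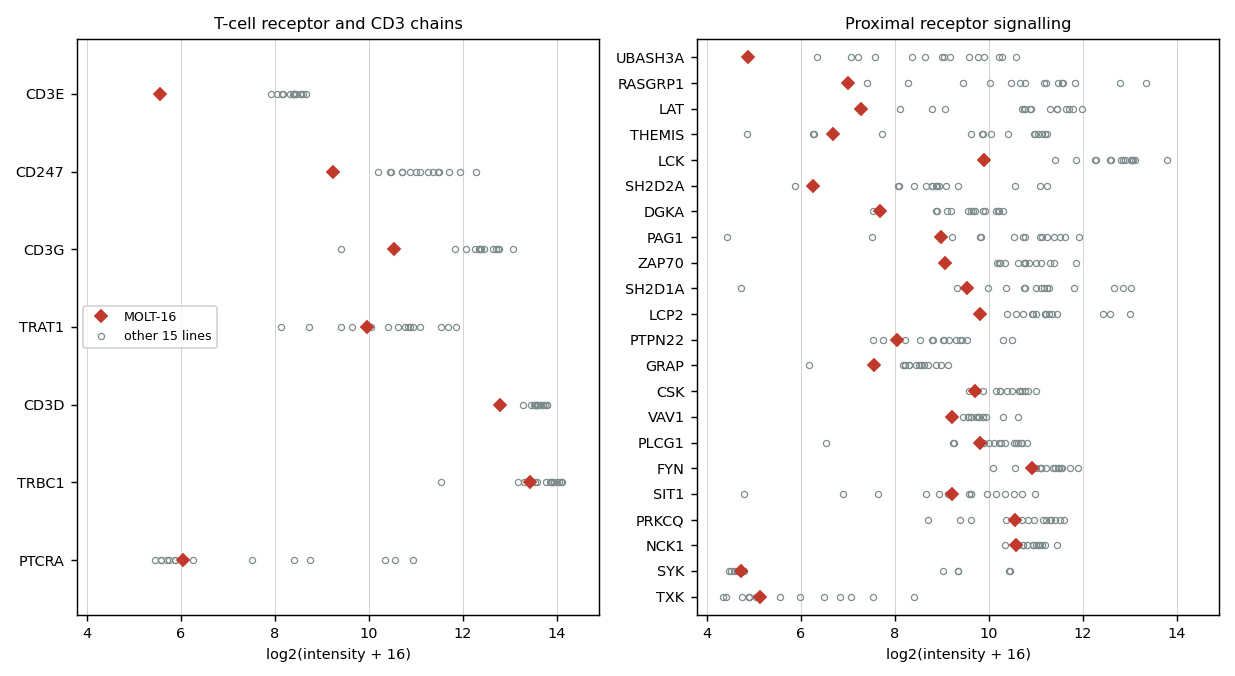
Level as log2(intensity + 16) (horizontal axis) of the 7 measured receptor and CD3 chains (left) and the 22 proximal signalling genes (right) in MOLT-16 (red diamonds) and each of the other 15 lines (grey circles), ordered by MOLT-16 minus the median of the others. CD3E is clear of all other lines, whereas TRBC1, TRAT1 and PTCRA lie among them.

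Surface antigens and lineage factors of T cells followed the same direction. Of 27 coreceptors and surface antigens, 23 were below the median of the other lines, 5 were lowest in MOLT-16 (CD38, CD52, CD96, PTPRCAP and SPN), and none was below all others by at least 1. Of all bright genes 11.8% were lowest in MOLT-16, and all 27 antigens were bright. CCR7, a homing receptor, was the member farthest above the others' median, at 1082, between 13.3 and 3386 (median 189) in the others. CD96, an adhesion receptor, had 17.1 in MOLT-16, between 47.5 and 3677 (median 1211) in the others, and CD44, the hyaluronan receptor, had 27.3, between 10.2 and 8144 (median 1462) in the others. The median difference was -1.75, against -0.54 to 1.06 in the other lines. Of 22 T-lineage transcription factors, 19 were below the others' median, but only 2 were lowest in MOLT-16, near the share of bright genes. IKZF3, a factor of the Ikaros family, was lowest at 5.08 in MOLT-16, between 14.2 and 1654 (median 269) in the others. EOMES, a T-box factor, had 33.6 in MOLT-16, between 5.75 and 1385 (median 271) in the others. This list's median difference was -0.96, against -0.52 to 0.66.

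The 7 measured GIMAP genes, GTPases of lymphocytes, had a median difference of -1.45, but 3 other lines were lower, the lowest at -2.39. Of 11 thymocyte stage and recombination genes, CD1B, a lipid-presenting molecule, had 3.27 in MOLT-16, between 1.54 and 9328 (median 920.0) in the others, and CD1E had 3.59, between 4.49 and 8796 (median 872) in the others. The recombinase genes RAG1 and RAG2 lay on the other side of the others' median: RAG1 had 881 in MOLT-16, between 6.96 and 3415 (median 129.8) in the others, and RAG2 had 391.7, between 2.64 and 553 (median 51.4) in the others. Over the 11 genes the median difference was -0.83, and 6 other lines were lower. For GIMAP and thymocyte stage genes MOLT-16 thus lay inside the range of the other lines.

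The transcription factors by which T-ALL is grouped were mixed. The 22 measured genes had a median difference of 0.71, above each other line (-0.40 to 0.52), and 3 were highest in MOLT-16, beside 10.2% of all genes. MYC, a driver of cell growth, had 9553 in MOLT-16, between 23.6 and 9134 (median 5458) in the others, only 0.06 above the next line. NKX2-5, a homeobox gene silent in most T cells, had 787 in MOLT-16, between 1.0 and 1300.2 (median 10.9) in the others, with only CCRF-CEM and PEER higher. MEF2C, a MADS-box factor, had 500.3, between 7.89 and 4433 (median 12.2) in the others. TAL1, a basic helix-loop-helix factor, had 425, between 14.7 and 3586 (median 48.5) in the others, its relative LYL1 had 1085, between 79.9 and 3655 (median 162), and their partner LMO2 had 1028, between 8.68 and 6805 (median 519). MYB, a factor of blood progenitors, had 11422 in MOLT-16, between 230.2 and 10335 (median 7372) in the others. The third gene highest in MOLT-16 was SPI1, the myeloid factor PU.1, at 19.7, between 1.0 and 13.2 (median 6.70) in the others, a probe set dim in all lines.

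ATF4 and stress regulators were led by CHAC1. Of 24 genes, 6 were highest in MOLT-16, 3 of them (CHAC1, VLDLR and EIF4EBP1) by at least 1, beside 10.2% and 0.452% of all genes. CHAC1 was taken from these data as a marker of the line, so its place in both counts was known beforehand. ATF4 itself had 12133 in MOLT-16, between 6341 and 9202 (median 7601) in the others. CEBPB, which pairs with ATF4 on DNA, had 4167, between 688 and 2146 (median 1425) in the others, and TRIB3, a pseudokinase that ATF4 induces, had 3805, between 444 and 3297 (median 1314) in the others. EIF4EBP1, a repressor of cap-dependent translation, had 3954 in MOLT-16, between 299.6 and 1732 (median 1047) in the others. VLDLR, a lipoprotein receptor, had 1015, between 5.63 and 423 (median 182) in the others.

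Other members of this list overlapped the other lines or were low. DDIT3, the factor CHOP of prolonged stress, had 227 in MOLT-16, between 202 and 690.3 (median 281) in the others, with 4 lines lower. SESN2, a leucine sensor, had 894, between 121 and 999.6 (median 223) in the others, and SUP-T11 was higher. KLHL24, an adaptor of a ubiquitin ligase, went the other way: it had 110.5 in MOLT-16, between 259 and 468 (median 330.1) in the others, below all of them by at least 1. Its other 4 probe sets were also lowest in MOLT-16, by -0.03 to -0.33. The list's median difference was 0.42, against -0.28 to 0.24 in the other lines. The 17 chaperones of the endoplasmic reticulum, induced when proteins misfold there, had a median difference of only 0.12, inside the range of the other lines (-0.75 to 0.69).

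Most enzymes that make amino acids were higher in MOLT-16 than in the median of the other lines. Of 17 measured genes, 12 were above that median and 5 below it, 10 were highest in MOLT-16 and 2, ASS1 and PSAT1, were so by at least 1. Of all genes 10.2% were highest and 0.452% were so by at least 1. ASNS, counted among the 10, was taken from these data as a marker of the line, so its place there was known beforehand. PSAT1 and PHGDH act in serine synthesis. PSAT1 had 10856 in MOLT-16, between 4.88 and 5113 (median 3216) in the others, and its second probe set lay 2.30 above the next line. PHGDH had 8742 in MOLT-16, between 23.5 and 6148 (median 4307) in the others. PCK2, the mitochondrial form of phosphoenolpyruvate carboxykinase, had 3072, between 205 and 1645 (median 841) in the others.

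The proline enzymes ALDH18A1 and PYCR1 were also highest, at 4260.0 (between 984 and 3105 (median 2382) in the others) and 833 (between 43.4 and 688 (median 375) in the others). The aspartate transaminase GOT1 had 1472 in MOLT-16, between 522 and 1095 (median 736) in the others. SHMT2 and MTHFD2, of mitochondrial one-carbon metabolism, were highest by 0.39 and 0.26, but in their other probe sets 1 or more lines were higher. The enzymes CTH, CBS and ASL, and the cytosolic SHMT1, were not high in MOLT-16: CBS had 10.4, between 4.71 and 2194 (median 37.04) in the others. The median difference over the 17 genes was 0.81, against -0.27 to 0.31 in the other lines, but it was 0.30 without _x_at and _s_at probe sets.

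Amino acid transporters and tRNA synthetases followed. Of 13 transporters 4 were highest in MOLT-16, beside 10.2% of all genes. SLC7A11, the cystine importer, had 2645, between 175 and 978 (median 357) in the others, and was the sole transporter highest by at least 1, with a gap of 1.42. A second SLC7A11 probe set was highest by 0.75. SLC7A5 and SLC3A2, the paired chains of a leucine transporter, were highest at 7648 (between 1118 and 5321 (median 3062) in the others) and 3738 (between 1071 and 1957 (median 1663) in the others). SLC7A6 was lowest in MOLT-16, at 704, between 829 and 1142 (median 990.1) in the others. The transporters' median difference was 0.48, against -0.22 to 0.13.

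Of 15 measured tRNA synthetases, which charge tRNAs with their amino acids, 10 were highest in MOLT-16 and none by as much as 1. All 15 were bright. The same shares were 10.2% and 0.452% of all genes and 11.7% and 0.666% of bright genes. They were 15% and 0.0745% of genes with a median of at least 1000 in the other lines. The number highest was 8 of 15 after quantile normalization and 5 of 10 without _x_at and _s_at probe sets. CARS1, for cysteine, had 7552 in MOLT-16, between 2695 and 4739 (median 3957) in the others, and both of its other bright probe sets were highest too. IARS1, for isoleucine, had 11392, between 4512 and 7746 (median 6251) in the others. KARS1, for lysine, lay inside the range, at 9703, between 8017 and 11980.3 (median 10124) in the others. The differences from the others' median ran from -0.06 for KARS1 to 0.93 for CARS1, with a median of 0.61, against -0.27 to 0.13 in the other lines.

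**Figure D4:**
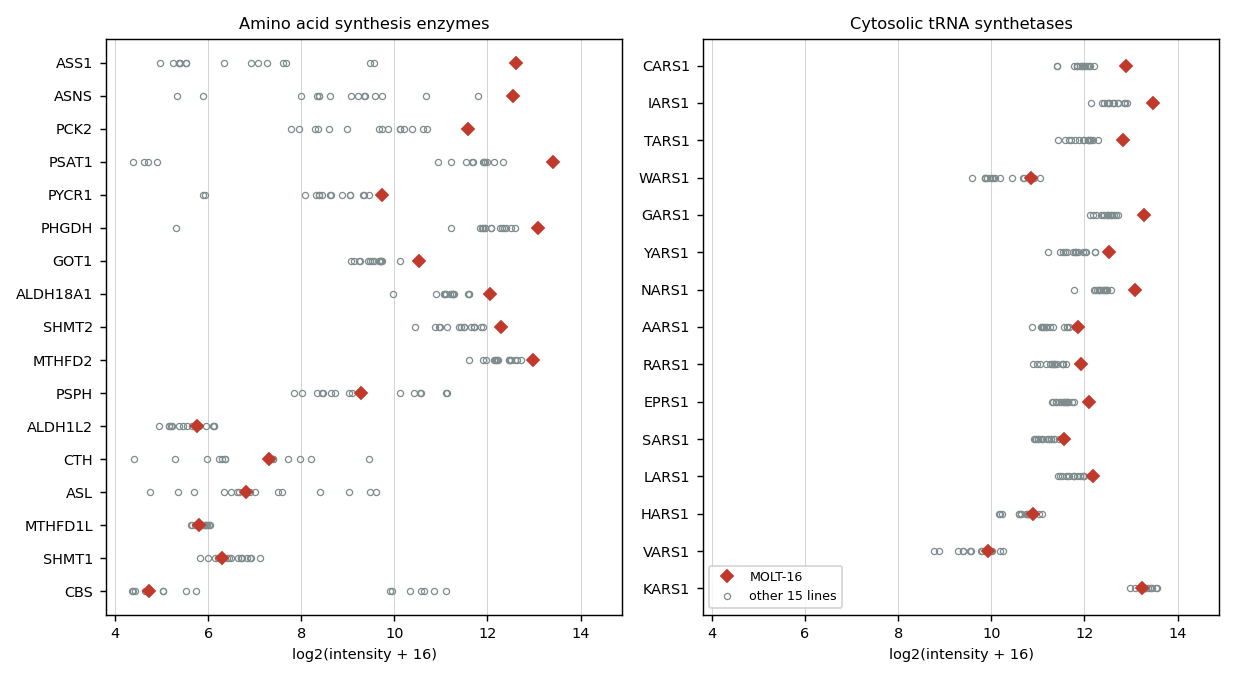
Level as log2(intensity + 16) (horizontal axis) of the 17 measured amino acid synthesis enzymes (left) and the 15 tRNA synthetases (right) in MOLT-16 (red diamonds) and each of the other 15 lines (grey circles), ordered by MOLT-16 minus the median of the others. In each panel MOLT-16 is the highest line for 10 genes, and only ASS1 is set apart by at least 2.

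The element printed in capitals for CHAC1 and ASNS was searched on both strands in the RefSeq windows used here, which run from 250 bases before to 50 after each start. Windows on chromosome 8 were left out, also from the counts that follow. The element was found in 1268 of 35116 windows (3.61%) and, taking any window of a gene, in 1215 of 27305 genes (4.45%). Of the listed genes with a window, it was found in 7 of 14 synthetases, 5 of 11 transporters, 6 of 21 stress regulators and 3 of 13 synthesis enzymes. It was also found in 3 of 20 proximal signalling genes, and in none of 16 chaperones or 4 receptor chains. The synthetases with it were TARS1, GARS1, IARS1, CARS1, MARS1, AARS1 and NARS1. ASNS had 2 windows, of which 1 held the element. A match of letters is no evidence that a protein binds there, and the lists were chosen with earlier results of these data known.

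Proliferation and housekeeping genes differed little. The 17 proliferation genes had a median difference of -0.06 and the 10 housekeeping genes of -0.05, both inside the range of the other lines. The 18 p53 target genes had a median difference of 0.01, also inside the range. Of 17 tumour suppressors and cell cycle inhibitors, 15 were below the others' median, with a median difference of -0.54, against -0.34 to 0.14 in the other lines. Of the 17, 4 were lowest in MOLT-16, beside 9.7% of all genes, and none by at least 1. BCL11B, a factor that commits cells to the T lineage, had 1040.4 in MOLT-16, between 300.2 and 6832 (median 5474) in the others, with DU528 alone lower. The 19 genes of JAK-STAT signalling (-0.24), 12 TAL1 targets (-0.43), 18 genes of the NOTCH1 pathway (0.08) and 14 of the BCL2 family (-0.09) also had median differences inside the range of the other lines.

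**Figure D5:**
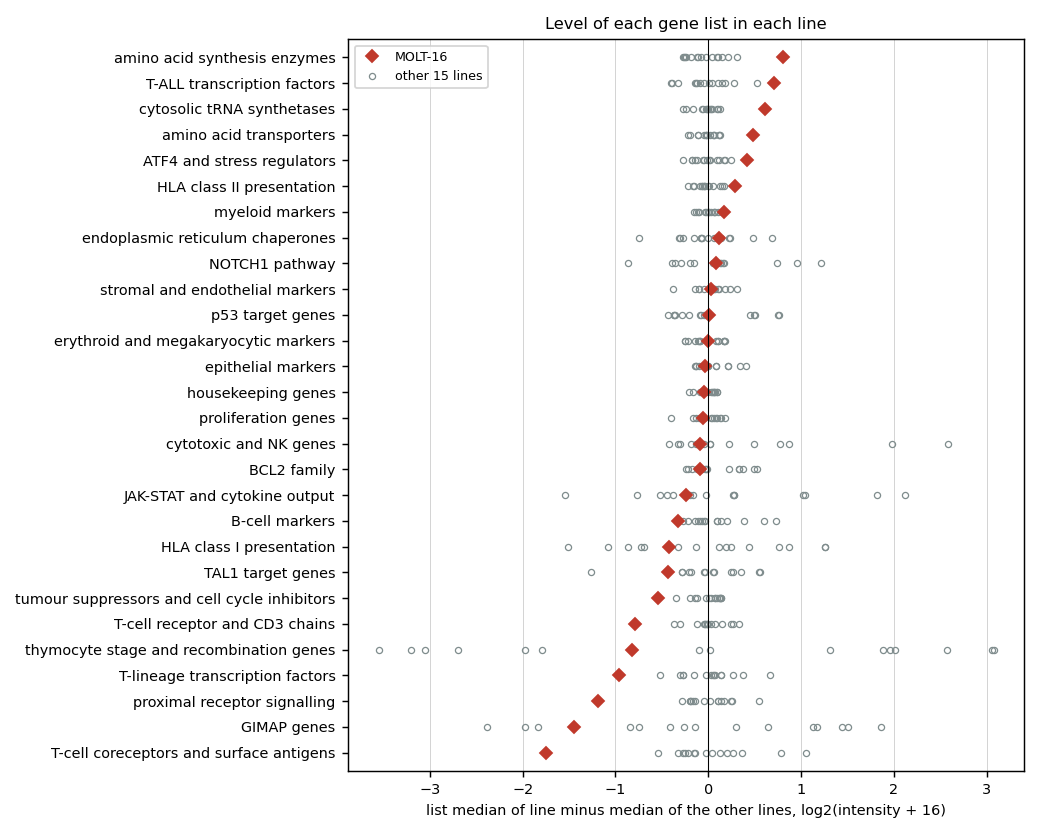
Median over each gene list of a line minus the median of the other lines (horizontal axis, log2(intensity + 16)) for MOLT-16 (red diamonds) and each of the other 15 lines (grey circles), lists ordered by MOLT-16. MOLT-16 lies right of all other lines for the amino acid synthesis (0.81), T-ALL factor (0.71), synthetase (0.61), transporter (0.48) and ATF4 (0.42) lists among others, and left of all for surface antigens (-1.75), proximal signalling (-1.18) and receptor chains (-0.79) among others.

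Markers of other cell types were mostly dim in MOLT-16. The 9 measured myeloid markers summed to 254 in MOLT-16, against 148 to 2538 in the other lines, with CD14 at 4.73 and LYZ, the enzyme lysozyme, at 50.7 (1.0 to 696 in the others). Their median difference, 0.17, was above that of each other line (-0.16 to 0.14), but it was -0.0069 without _x_at and _s_at probe sets. The 7 B-cell markers summed to 361, against 192 to 2676, with MS4A1, the antigen CD20, at 18.3 and CD79B, a chain of the B-cell receptor, at 200.1 (6.92 to 1152 in the others). The B-cell list had a median difference of -0.33, below each other line (-0.28 to 0.73), but of 0.0323 without _x_at and _s_at probe sets. The 7 erythroid and megakaryocytic markers summed to 296, against 195 to 898, and the 10 stromal and endothelial markers to 1353, against 315 to 4557, of which SPARC, a matrix protein, made 967. The 8 epithelial markers summed to 449, against 266 to 566, and KRT8, a keratin, was highest in MOLT-16 at 238, between 38.4 and 85.5 (median 63.9) in the others. Among T-cell markers CD7 was 345 in MOLT-16, between 208 and 4917 (median 1765) in the others, while CD2 (21.8) and CD5 (30.7) were below the table median. Low CD2 and CD5 were shared: 2 other lines were lower for each.

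In cytotoxic and antigen-presenting genes single members stood out. The 14 cytotoxic and NK genes summed to 8279 in MOLT-16, against 869 to 28675, and GZMA, a protease of killer cell granules, made up most of it at 7315, between 8.19 and 15841 (median 339.7) in the others. HLA-DPA1, a chain of HLA class II, had 239 in MOLT-16, between 8.0 and 60.4 (median 15.7) in the others, while HLA-DRA had 21.7, between 10.7 and 33.04 (median 16.8) in the others. The 10 class II genes, most of them dim, had a median difference of 0.29, against -0.21 to 0.17 in the other lines. Of 12 class I genes 11 were below the others' median, with a median difference of -0.42, inside the range of the other lines. NLRC5, a regulator of class I genes, had 13.4 in MOLT-16, between 8.42 and 1358 (median 247) in the others.

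Some extreme levels were shared with a single line. Beside the set-apart genes, there were 20 of 19700 genes for which MOLT-16 lay at least 2 above all but 1 line. There were 45 for which it lay at least 2 below all but 1. These counts were not taken for the other lines, so whether they are unusual cannot be said. SUP-T11 was the nearest line for 4 of the high genes, and JURKAT for 10 and DU528 for 7 of the low genes. CYTL1, a small secreted protein, had 454 in MOLT-16, 107 in PEER and between 1.83 and 14.3 in the other 14 lines. NPW, a neuropeptide, had 917 in MOLT-16 and 221 in PEER, between 2.74 and 62.9 in the other 14. CSTA, a protease inhibitor, had 549 in MOLT-16 and 217 in DU528, between 4.73 and 46.4 in the other 14. SPOCK1, a proteoglycan, had 397 in MOLT-16 and 162 in SUP-T11, between 6.90 and 52.5 in the other 14. In these 4 genes MOLT-16 was the higher line of the pair. HDGFL3, a growth factor relative, had 7.69 in MOLT-16 and 2.67 in TALL-1, between 751 and 3851 in the other 14. ARMCX5, an armadillo repeat gene, had 4.09 in MOLT-16 and 4.60 in JURKAT, between 371 and 842 in the other 14. HEBP2, a heme-binding protein, had 4.53 in MOLT-16 and 6.27 in TALL-1, between 396 and 4499 in the other 14. Among these low genes the partner line thus differed, with TALL-1 for 2 of the 3. CERS6, a ceramide synthase, had 13.8 in MOLT-16 and 35.2 in PEER, between 397 and 2863 in the other 14. BEX4 had 15.1 in MOLT-16 and 100.3 in ALL-SIL, between 383 and 3615 in the other 14.

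As a description of overall likeness, Pearson's r with MOLT-16 was taken across the 1000 genes with the highest SD, each centred on its mean. Genes are not independent replicates, and centring pushes such values below 0. CCRF-CEM was closest at 0.27 and KOPT-K1 farthest at -0.30, while the highest value between any 2 of the lines was 0.43, for MOLT-4 and PF-382.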

How the data were processed

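RNA of 16 T-ALL cell lines was hybridised, a single Affymetrix U133 Plus 2.0 array for each. The authors deposited linear intensities of probe sets, from 0.60 to 24485. Their software, background correction and scaling: not given in the sources used here. No further normalization was applied. The number of arrays limits the precision, and depth does not apply. No pair of arrays held identical values.

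Values were analysed as log2(intensity + 16). Of 54675 probe sets, 62 were controls, and the platform annotation, which can be old, gave 41097 a single gene and 1801 several. Of those with a single gene, 41043 matched RefSeq (GRCh38.p14). Each of 19700 genes was represented by its probe set with the highest mean, without genes of chromosome Y and the X inactivation transcripts. A gene was set apart where MOLT-16 lay at least 2 beyond every other line, and outermost where it lay at least 1 beyond. Probe sets of hybridisation spikes (9) had a median difference of -0.12 in MOLT-16, against a median SD of 0.17 over the other lines. A simulated table was used to test the code.

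MOLT-16, the 28 gene lists (425 genes, 392 measured, 33 not analysed here) and all rules were chosen with earlier results of these data known, so no list has a test. Named genes are up to 20 in each direction with the largest gap among those set apart, CHAC1 and ASNS, members of the receptor, ATF4 and amino acid synthesis lists, members of other lists outermost by at least 1 or farthest from the others' median, genes at the threshold, the 6 genes in each direction with the largest gap to the 2nd nearest line among those shared with 1 line, neighbouring genes, and TAL1, NKX2-5, MYC, LMO2 and LYL1. Any other gene named was chosen after its values were seen: ASL, RASGRP1, SLC7A5, SLC3A2, SLC7A6, CARS1, IARS1, KARS1, GZMA, HLA-DRA, CD14, LYZ, MS4A1, CD79B, RAG1, RAG2, SPARC, CD2, CD5, CD7, CD38, CD52, CD44, PTPRCAP, SPN and the remaining set-apart genes among them. Alternatives were the pseudocount (1 and 64), quantile normalization, centring on array medians, other choices of probe set, a filter on low values, other gaps and leaving out each other line. The code used matplotlib 3.10.9, scipy 1.17.1, pandas 2.3.3 and numpy 2.4.6 under Python 3.11.15.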

Additional observations from a re-analysis of the deposited data

How the results depend on the processing

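The count of genes set apart high (15) was 24 with a pseudocount of 1, 8 with 64, 24 after quantile normalization, 37 at a gap of 1.5, 5 at a gap of 3 and 35 against the 2nd nearest line. The count set apart low (29) was 54 with a pseudocount of 1, 8 with 64, 11 with the mean of all probe sets, 50 at a gap of 1.5, 6 at a gap of 3 and 74 against the 2nd nearest line. Leaving out each other line gave 15 to 19 high and 29 to 39 low genes. Centring the arrays on their medians moved the median difference of all genes to 0.14, from 0.0038. List members above all other lines by at least 1 (8) numbered 4 without _x_at and _s_at probe sets and 47 at any gap, and those below (6) numbered 11 with a pseudocount of 1 and 43 at any gap. Leaving out lines and counting any gap were chosen after seeing the data. Without _x_at and _s_at probe sets, which leaves fewer genes, the median difference of the receptor chains was -1.85 and that of the synthesis enzymes 0.30. Proximal signalling was -1.43 with the probe set of highest SD and -0.83 with the mean of all probe sets. The transporters were 0.67 with a pseudocount of 1, 0.59 after centring and 0.67 with the probe set of highest SD. Of 516 gaps recomputed for 66 named genes, 423 moved by less than the SD of the other lines, 84 moved more and 9 changed sign. The 423 include values that could not move. The filter on low values leaves every gap as it was, and a sole probe set stays the same whichever way probe sets are chosen. Without _x_at and _s_at probe sets the gap was 0.84 for SEC22B, -0.13 for SLC2A5, -0.78 for TNFRSF4, 1.27 for TUG1, 1.43 for TXNDC9, 0.52 for ZNF829, 0.16 for DIAPH1 and -0.49 for ASNS, whose remaining probe set was at the bottom of the scale in all lines. With the mean of all probe sets the gap of TUG1 was 0.0867. Without _x_at and _s_at probe sets the myeloid list median was -0.0069 and the B-cell list median 0.0323. Beyond the probe sets named, the cause was not tested. No paired analysis was possible because each line was measured once and MOLT-16 is a single array. The precision of the single MOLT-16 array is unknown, and a difference in culture or hybridisation cannot be told apart from a property of the line.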

Other observations

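The gene lists here were drawn up after the values were seen and describe these arrays only. Of 30 measured interferon-induced genes, 4 were highest in MOLT-16 and 3 of them, IFIT1, IFIT2 and IFIT3, by at least 1, beside 10.2% and 0.452% of all genes. IFIT3 had 2305 in MOLT-16, between 11.5 and 761 (median 108) in the other lines, and a second probe set of IFIT3 was highest by 1.36. With IFIT1 and IFIT2 it formed the sole run of 3 neighbouring measured genes at which MOLT-16 was outermost by at least 1. Of the 30 genes 18 were above and 12 below the others' median. MX1, which blocks viruses in the cytoplasm, had 41.95 in MOLT-16, between 7.17 and 1187 (median 173) in the others, and XAF1, a cell death factor, had 28.4, between 16.4 and 3225 (median 859) in the others. The list's median difference was 0.35, inside the range of the other lines (-1.55 to 0.75).

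Many genes of leukocyte integrins and the actin skeleton were low in MOLT-16. Of 29 measured, 13 were lowest in MOLT-16 and 8 of them by at least 1, beside 9.7% and 0.563% of all genes. All 29 were bright, and of bright genes these shares were 11.8% and 0.976%. The list's median difference of -0.77 was below each other line (-0.53 to 1.01). ITGAL, the alpha chain of the integrin LFA-1, had 33.2 in MOLT-16, between 147 and 6636 (median 874) in the others, and a second probe set was lowest by -1.49. Its partner ITGB2 was not low: it had 2118 in MOLT-16, between 290.0 and 3662 (median 1911) in the others. FERMT3, which activates integrins in blood cells, had 182, between 444 and 1467 (median 759) in the others. WIPF1, a partner of the actin regulator WAS, had 229, between 871 and 5035 (median 2206) in the others, while WAS itself had 1919, between 1505 and 4403 (median 2265) in the others. DIAPH1, a formin, had 523, between 1760.1 and 7624 (median 2387) in the others, but it was not lowest without _x_at and _s_at probe sets.

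Of 12 sugar transporters of the SLC2A family 10 were above the others' median and 4 were highest in MOLT-16, beside 10.2% of all genes. Apart from SLC2A5 none was highest by at least 1. The list's median difference was 0.80, above each other line (-0.25 to 0.37), and 7 of the 12 genes were bright. SLC2A1, the common glucose transporter, had 311 in MOLT-16, between 116 and 533 (median 152) in the others. Of 8 protein kinase C genes, all of them bright, 2, PRKCA and PRKCB, were lowest in MOLT-16. The shares were 9.7% of all genes and 11.8% of bright genes. Both were already known to be set apart low when the list was drawn up, and a second bright PRKCA probe set was not lowest. PRKCQ, the form tied to the T-cell receptor, had 1483, between 401 and 3071 (median 1972) in the others. This list's median difference was -1.02, below each other line (-0.87 to 0.73).

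By chromosome, medians were taken over bright genes only. The median difference in MOLT-16 was highest on chromosomes 20 (0.31 over 296 genes), 9 (0.28 over 444 genes) and 22 (0.28 over 267 genes), each above the same value in every other line. Chromosome 15 had the lowest, -0.32 over 363 genes, below every other line (-0.30 to 0.26). Other lines had medians as large on other chromosomes, such as -0.68 on chromosome 10.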
